A study of Drosophila melanogaster with 46 samples.

Results

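The BEL/Pao elements roo, 3S18 and diver were followed through libraries of small RNAs from ovarian somatic cells (OSC) of Drosophila melanogaster, cells that grow in culture and derive from the follicle cells of the ovary. They were taken by name from a table of transposable elements (TEs) that gives sense and antisense small RNAs for 124 TEs, and all 3 are in it. The study asked how the protein CG9754, which it calls Silencio and which RefSeq's gene table lists as Panx, connects Piwi and its piRNAs to heterochromatin. The table covers 6 of the 46 samples of the series, with 2 libraries in each of 3 groups. The groups were input small RNA, small RNA from a Piwi immunoprecipitate (Piwi-IP) and small RNA from a CG9754 immunoprecipitate (CG9754-IP). The labels list input with no genotype change and name no allele, tag, antibody or siRNA for any of the 3 groups. They apply 1 treatment text to every sample of the series, siRNA transfection with analysis after 4 days, so whether the cells of these 6 libraries were transfected is not given. All libraries come from 1 cell line, and a mock precipitate was not analysed here. In such bulk samples, fewer cells of a kind and less RNA per cell cannot be told apart.

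BEL/Pao elements are retrotransposons with long terminal repeats (LTRs) that move through an RNA copy, and they form a superfamily of their own beside the gypsy and copia types. Roo is one of the most numerous TEs in the Drosophila melanogaster genome, 3S18 is also known as BEL, and diver has a relative, diver2. In follicle cells, piRNAs load onto Piwi, an Argonaute protein that acts in the nucleus and silences TEs through their nascent transcripts. A piRNA antisense to a TE can pair with the TE's transcript, while a sense piRNA has the sequence of that transcript.

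The library totals implied by the deposited values were 12493500 to 26138400 reads, so 3 reads correspond to 0.115 to 0.240 RPM, the reads of a TE scaled to the size of its library. The labels name no molecular identifiers, so intervals and this floor describe counting error alone. No element lengths were in the files, so levels of different elements are not compared with each other. The median absolute log2 ratio between replicates over the 75 TEs tested on the antisense strand was 0.035 for the input pair, 0.054 for the Piwi-IP pair and 0.22 for the CG9754-IP pair, so the CG9754-IP libraries stood furthest apart. Antisense reads made up 94.5% to 94.8% of the TE signal in the 4 input and Piwi-IP libraries, and 90.5% and 90.6% in CG9754-IP. Nothing in the labels says that replicates came from separate cultures, so p-values measure only the spread between these libraries.

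Roo small RNAs were mostly antisense and had similar levels in input and Piwi-IP, while the CG9754-IP libraries lay on either side of that level. Antisense to roo, input replicates 1 and 2 had 1642 and 1600 RPM, and Piwi-IP had 1649 and 1675. CG9754-IP replicate 1 had 2523 RPM and replicate 2 had 1260. The first of these was above, and the second below, all 4 libraries of the other groups. Input averaged 1621 ± 29.7 RPM, Piwi-IP 1662 ± 18.4 and CG9754-IP 1892 ± 893 (SD, n = 2 libraries, as for all means that follow).

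**Figure D1:**
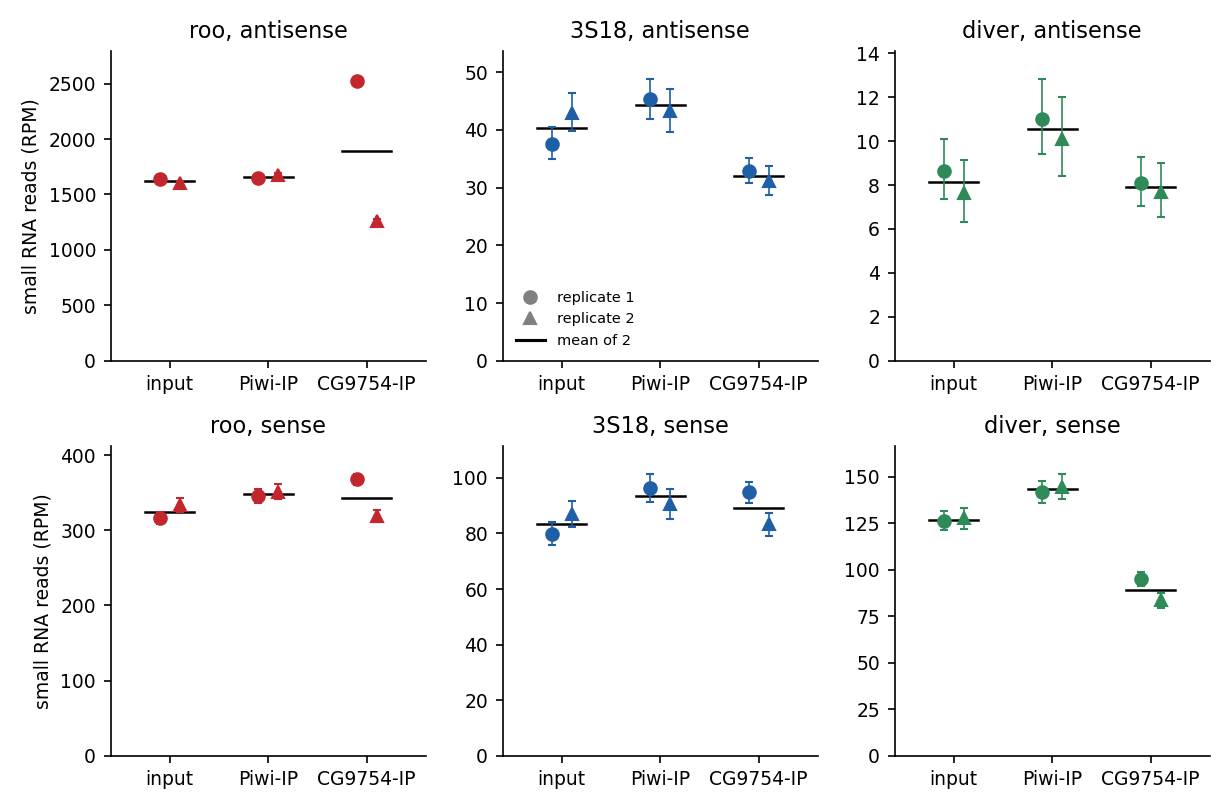
Small RNA reads (RPM, axes from 0) of roo, 3S18 and diver on the antisense strand (top row) and sense strand (bottom row) in input, Piwi-IP and CG9754-IP. Points are single libraries with their exact Poisson 95% interval, and bars are means of 2. Antisense to roo the CG9754-IP libraries lie at 2523 and 1260 RPM, and sense to diver both lie below the other 4.

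The roo antisense difference between the groups was tested with limma on log2(RPM + 1), with all 6 libraries in 1 fit and Benjamini-Hochberg adjustment over all TEs tested on the strand. Fold changes on that scale understate the changes of low values. For CG9754-IP against Piwi-IP the log2 change was 0.10 (95% interval −0.67 to 0.87, adjusted p = 0.796), and for CG9754-IP against input it was 0.14 (adjusted p = 0.691). The interval spans changes in either direction. Leaving out CG9754-IP replicate 1 gave −0.40 against Piwi-IP. Leaving out replicate 2 gave 0.60. These fits assume that a lone CG9754-IP library varies like input and Piwi-IP, whose replicates were closer together. Their p-values are therefore not given. The direction of roo antisense in CG9754-IP thus rested on 1 library. With all TE reads of a library set to one common sum, called rescaling to equal TE sums below, the change was 0.45 (adjusted p = 0.255).

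Roo was singled out for its difference between the CG9754-IP libraries, so that difference is described here and not tested. Replicate 1 held 65949 implied reads antisense to roo and replicate 2 held 25041, a ratio of RPM of 2.00 (exact binomial 95% interval 1.97 to 2.03, for counting error within these libraries). The input pair gave 1.03 (1.01 to 1.04) and the Piwi-IP pair 0.985 (0.967 to 1.00). Among the 75 TEs, the log2 ratio of roo between the CG9754-IP libraries, 1.00, was at rank 3 in size. It came after invader2 at 1.85 (118 and 32.0 RPM) and GATE at 1.21 (60.9 and 25.8 RPM). Of the 29 TEs that averaged 1000 RPM or more in CG9754-IP, a limit set after the values were seen, roo had the largest, and the next was 0.47 in size, that of springer. That limit leaves out invader2 and GATE. Roo was chosen for this difference, so its ranks are not a separate result. Roo made up 1263 RPM of the net 6074 RPM by which the antisense sum over all TEs was higher in replicate 1. The other roo-named element, rooA, was also higher in replicate 1, with 242 and 149 RPM antisense (ratio 1.63, 1.56 to 1.70). In all, 51 of the 75 TEs were higher in replicate 1, and rooA was at rank 7 in size. On the sense strand the ratio was 1.61 for rooA and 1.15 for roo. How reads that match both roo and rooA were counted is not given in the sources used here.

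**Figure D2:**
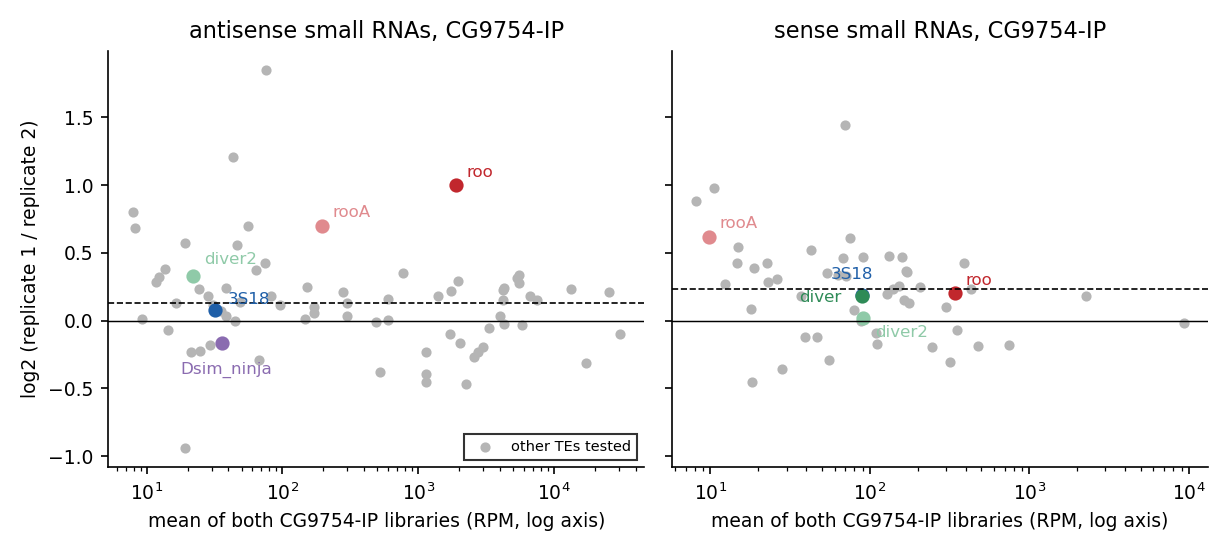
Log2 ratio of CG9754-IP replicate 1 to replicate 2, from RPM + 1, against the mean of both libraries (RPM, log axis), for the 75 TEs tested on the antisense strand (left) and the 53 on the sense strand (right). Grey points are other TEs, coloured points are BEL/Pao elements and the dashed line is the median. Roo stands at 1.00 on the antisense strand and at 0.20 on the sense strand, where the median is 0.23.

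On the sense strand roo was close to level across all 6 libraries. Input had 316 and 334 RPM, Piwi-IP had 346 and 352, and CG9754-IP had 368 and 320. The CG9754-IP libraries thus overlapped both other groups and differed by a ratio of 1.15 (1.12 to 1.19). The log2 change from Piwi-IP to CG9754-IP was −0.025 (adjusted p = 0.867), with an interval of −0.27 to 0.22. Rescaled to equal TE sums, it was 0.32 (adjusted p = 0.0132). This rescaling moved the median log2 change of the 53 TEs tested from 0.15 to 0.49, so in both cases roo lay below the median TE.

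The small RNAs of 3S18 were mostly sense, and its antisense level was lower in CG9754-IP. Antisense to 3S18, input had 37.6 and 42.9 RPM, Piwi-IP 45.3 and 43.2, and CG9754-IP 32.9 and 31.1. Both CG9754-IP libraries were below all 4 others. Of the TEs tested on this strand, 66.7% had both below both Piwi-IP libraries, and 54.7% had both below both input libraries. The share below all 4 was not counted. The mean of Piwi-IP was 44.2 ± 1.45 RPM and that of CG9754-IP fell below it to 32.0 ± 1.24 (log2 change −0.45, limma adjusted p = 0.0126). The count of 1 of the 2 members tested on this strand has to be read against a background in which limma called 62.7% of the 75 TEs, 53.3% as lower and 9.33% as higher. The change of 3S18 was near the median of −0.38 over those TEs. Rescaled to equal TE sums it was −0.11 (adjusted p = 0.374, median over all TEs −0.029), where 42.7% of TEs were called, 21.3% in each direction, and 0 of the 2 members, with 0 also at an unadjusted p under 0.05. The call was also lost without Piwi-IP replicate 1 (adjusted p = 0.0714) or replicate 2 (adjusted p = 0.0519). Against input the change was −0.32 (adjusted p = 0.0515), where limma called 45.3% of the TEs, 12% as higher and 33.3% as lower. The members called there were 0 of 2, with 1, 3S18, at an unadjusted p under 0.05. Rescaled to equal TE sums, the change of 3S18 against input was −0.14 (adjusted p = 0.273), with 25.3% of TEs called higher and 20% lower. By median ratios its change against Piwi-IP was −0.087 (adjusted p = 0.466), with 38.7% of TEs called.

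Sense to 3S18, input had 79.9 and 87.0 RPM, Piwi-IP 96.4 and 90.4, and CG9754-IP 94.8 and 83.2. The CG9754-IP libraries overlapped both other groups. The log2 change from Piwi-IP was −0.071 (95% interval −0.36 to 0.22, adjusted p = 0.699). It was 0.27 rescaled to equal TE sums (adjusted p = 0.0615) and 0.30 with libraries scaled by median ratios across antisense TEs (adjusted p = 0.00977). With that scaling limma called 79.2% of the 53 TEs, 64.2% as higher, and the median change was 0.52, so 3S18 lay below the median TE.

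Diver small RNAs were nearly all sense, and diver was the member whose sense level fell in CG9754-IP. Input had 126 and 128 RPM, Piwi-IP had 142 and 145, and CG9754-IP had 95.1 and 83.6. The CG9754-IP libraries were both below the other 4. Of the TEs tested, 30.2% had both below both Piwi-IP libraries, and 24.5% had both below both input libraries. How many were below all 4 was not counted. Piwi-IP averaged 143 ± 2.14 RPM and CG9754-IP 89.3 ± 8.13, a log2 change of −0.68 (SE 0.14, limma adjusted p = 8.5e-05). From input, at 127 ± 0.995 RPM, to CG9754-IP it was −0.51 (SE 0.14, adjusted p = 0.00212). The comparisons with Piwi-IP and with input share the CG9754-IP libraries.

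Diver was 1 of the 3 members tested on the sense strand that passed against Piwi-IP, where limma called 67.9% of 53 TEs, with 45.3% higher and 22.6% lower. It was also the 1 member that passed against input, where 64.2% were called and 18.9% were lower. Rescaled to equal TE sums, 54.7% of TEs were called higher and 13.2% lower than in Piwi-IP. Diver was still among the lower ones (−0.33, adjusted p = 0.0210), and roo among the higher. Against input the rescaled change of diver was −0.32 (adjusted p = 0.0263), with 67.9% called, 52.8% higher and 15.1% lower. By median ratios the change against Piwi-IP was −0.31 (adjusted p = 0.00439), with 79.2% of TEs called, 64.2% higher and 15.1% lower. Left-out libraries gave −0.77 to −0.59 against Piwi-IP.

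**Figure D3:**
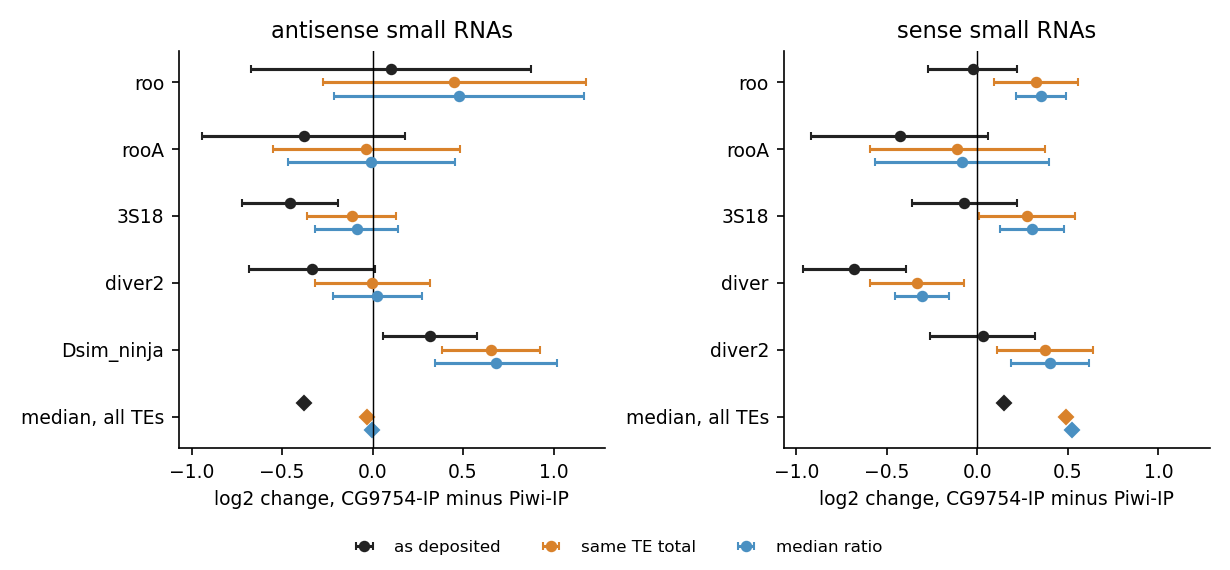
Log2 change from Piwi-IP to CG9754-IP, with limma's 95% interval, for the BEL/Pao elements tested on the antisense strand (left) and sense strand (right), as deposited and after 2 kinds of rescaling of the libraries. Diamonds give the median over all TEs tested. On the sense strand diver lies below 0 with each scaling, at −0.68, −0.33 and −0.31, while roo, 3S18 and diver2 lie above 0 once rescaled.

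The antisense level of diver was low, at 8.64 and 7.63 RPM in input, 11.02 and 10.09 in Piwi-IP and 8.11 and 7.70 in CG9754-IP. These stood on 117 to 212 implied reads per library. Both Piwi-IP libraries were above all others, and CG9754-IP overlapped input. The mean over the 6 libraries, 8.86 RPM, was under the filter of 10 RPM, so diver was not tested on this strand in the main fit. With no filter the log2 change from Piwi-IP to CG9754-IP was −0.37 (limma adjusted p = 0.0676), beside a median of −0.38 over the 75 TEs tested. It was −0.061 rescaled to equal TE sums, −0.035 by median ratios and −0.20 with a pseudocount of 10 RPM.

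Ratios between elements within a library do not depend on how that library was scaled, and element length cancels when the same ratio is compared across libraries. The ratio of diver to roo sense RPM was 0.400 and 0.383 for input, 0.410 and 0.412 for Piwi-IP, then 0.258 and 0.262 for CG9754-IP. Diver to 3S18 gave 1.58 and 1.47 with input, 1.47 and 1.60 with Piwi-IP, then 1.00 with both CG9754-IP libraries. Diver sense small RNAs were thus lower in CG9754-IP relative to either of the other members.

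Diver to its relative diver2 gave 1.79 and 1.63 with input, 1.56 and 1.68 with Piwi-IP, then 1.05 and 0.933 with CG9754-IP. By contrast, the ratio of 3S18 to roo stayed between 0.253 and 0.278 in all 6 libraries. For the 3 ratios with diver, CG9754-IP did not overlap the other groups, and an exact two-sided permutation test gave p = 0.333, the smallest that 2 libraries against 2 allow. Lack of overlap alone is weak evidence here. The ratio of diver to roo also did not overlap between Piwi-IP and input, whose means of 0.411 and 0.391 were close, beside 0.260 in CG9754-IP. How many pairs of other TEs lacked overlap was not counted.

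**Figure D4:**
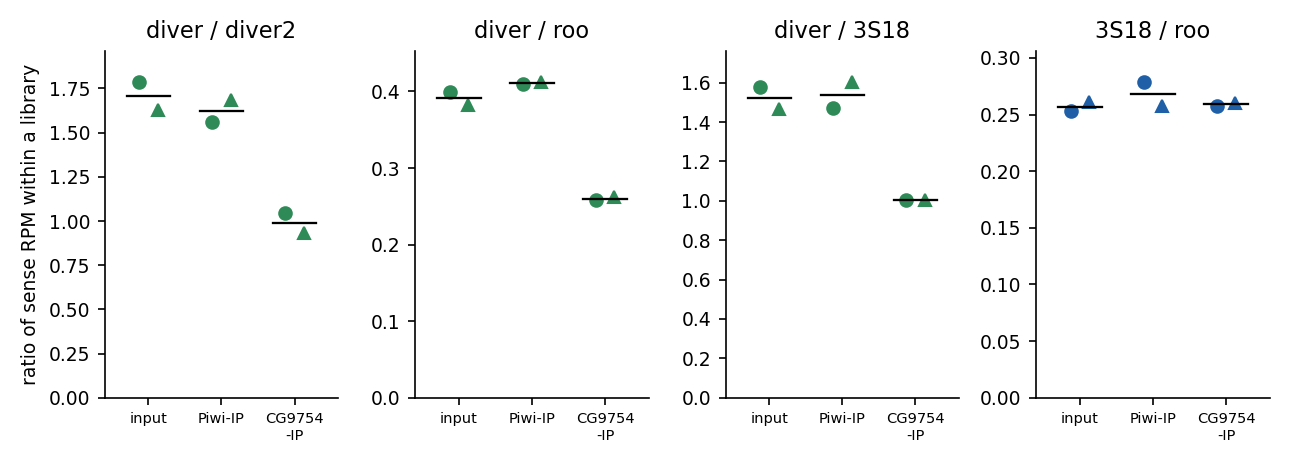
Ratios of sense RPM between pairs of BEL/Pao elements within each library, with axes from 0. Circles are replicate 1, triangles are replicate 2 and bars are means of 2. The 3 ratios with diver are lower in both CG9754-IP libraries than in the other 4, and the ratio of 3S18 to roo lies between 0.253 and 0.278 throughout.

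In Piwi-IP, all 3 members were a little higher than in input on both strands, and none passed limma. On the sense strand the log2 changes were 0.10 for roo (adjusted p = 0.780), 0.16 for 3S18 (adjusted p = 0.678) and 0.17 for diver (adjusted p = 0.656). On the antisense strand they were 0.036 for roo (adjusted p = 0.945) and 0.14 for 3S18 (adjusted p = 0.383), and 0.34 for diver, which was not tested there. With no filter, diver antisense had an unadjusted limma p of 0.047 (adjusted p = 0.237). In the main fit no member tested was called on either strand, 0 of 2 antisense and 0 of 3 sense, also at an unadjusted p under 0.05. Limma called 1.33% of all TEs on the antisense strand and 3.77% on the sense strand. That fit shares the spread of the CG9754-IP libraries with this comparison. For roo antisense the SE was 0.31 in it and 0.034 with only the 4 libraries compared. With those 4, limma called 60% of TEs antisense and 9.43% sense, and again 0 of 2 and 0 of 3 members. Diver sense then had an unadjusted limma p of 0.034 (adjusted p = 0.111).

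The members' values lay above both input libraries in both Piwi-IP libraries on each strand, a pattern that 80% of the TEs tested showed on the antisense strand and 49.1% on the sense strand. The median log2 change over all TEs was 0.16 antisense and 0.11 sense. Rescaled to equal TE sums, where 5.66% of TEs were called on the sense strand, all as lower, the changes of roo became −0.13 antisense and −0.060 sense, and those of 3S18 became −0.024 and −4.9e-04.

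The strand balance differed between the 3 elements in every library. Sense reads were 16.1% and 17.3% of roo small RNAs for input, 17.4% for both Piwi-IP libraries, then 12.7% and 20.2% for CG9754-IP. For 3S18, input had 68.0% and 67.0%, Piwi-IP 68.0% and 67.7%, CG9754-IP 74.2% and 72.8%. For diver, input had 93.6% and 94.4%, Piwi-IP 92.8% and 93.5%, CG9754-IP 92.1% and 91.6%. The 2 CG9754-IP libraries thus lay on either side of the others for roo, above them for 3S18 and below them for diver. For diver the gap was within counting error. The Wilson interval of CG9754-IP replicate 1, 91.1% to 93.1%, overlapped that of Piwi-IP replicate 1, 91.7% to 93.8%. The share of all TEs with either order was not counted, so these orders are descriptions only. Of the 89 TEs with at least 10 RPM over both strands, 25 were mostly sense in input, 3S18 and diver among them, and the median sense share was 8.44%. In Piwi-IP that median was 7.23%, and in CG9754-IP it was 12.1%.

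**Figure D5:**
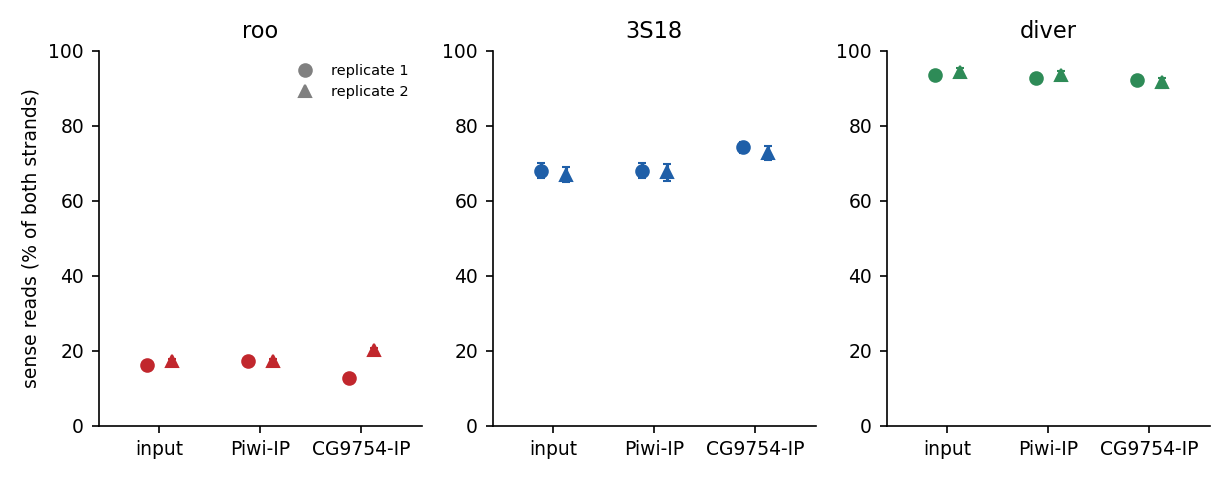
Sense reads as a percentage of the reads on both strands for roo, 3S18 and diver in each library, with Wilson 95% intervals. Roo is mostly antisense, 3S18 lies between 67.0% and 74.2% sense, and diver between 91.6% and 94.4%.

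The log2 ratio of sense to antisense of 3S18, from RPM + 1 on both strands, was 0.38 higher in CG9754-IP than in Piwi-IP (limma adjusted p = 0.0296), with 78.7% of the 89 TEs called, 58.4% as higher and 20.2% as lower. The rise of 3S18 was below the median of 0.61. It missed the threshold when only the 4 libraries compared were fitted (adjusted p = 0.0973), with no filter on low values (adjusted p = 0.0573) and without either input library (0.0966 and 0.0976) or either Piwi-IP library (0.0957 and 0.112). The sense share of 3S18 was higher in both CG9754-IP libraries than in the other 4. How many of the 89 TEs shared that order was not counted.

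The ratio for roo did not pass (−0.13, adjusted p = 0.682). It was −0.53 without CG9754-IP replicate 2 and 0.27 without replicate 1, so its direction rested on 1 library. Diver's was −0.30 (adjusted p = 0.0803). Diver's call on this ratio depended on the pseudocount: it passed at 10 RPM (−0.43, limma adjusted p = 0.00896). The share of TEs called at that setting is not given here. That pseudocount is about as large as diver's antisense level, 7.63 to 11.02 RPM. It shrank the antisense change from −0.37 to −0.20, so this call is not separate from the fall of diver sense RNAs. With the main pseudocount and without CG9754-IP replicate 1, the change of diver's ratio was −0.36. Against input, the ratio rose for 3S18 (0.41, adjusted p = 0.0245) and fell for diver (−0.47, adjusted p = 0.0208), with 71.9% of TEs called, 53.9% as higher and 18% as lower. The call of 3S18 against input was lost with the 4 libraries compared (adjusted p = 0.0509), without either input library (0.126 and 0.174) and without either Piwi-IP library (0.0510 and 0.0508). That of diver was lost without input replicate 1 (adjusted p = 0.0680) or replicate 2 (adjusted p = 0.171). For roo the change against input was −0.060 (adjusted p = 0.855), with 0.34 without CG9754-IP replicate 1 and −0.46 without replicate 2.

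Of 10 names on a list of BEL/Pao elements, 7 were in the table: the 3 members, rooA, diver2, Max-element and the ninja element of Drosophila simulans, which the table calls Dsim_ninja. Antisense, 5 were tested, and against Piwi-IP 1 rose and 1 fell in CG9754-IP, with a median log2 change of −0.34 beside −0.38 over all TEs, of which 9.33% were called higher and 53.3% lower. With either rescaling 1 rose and 0 fell. Over all TEs, 21.3% were called higher and 21.3% lower with equal TE sums, and 17.3% and 21.3% by median ratios. In the list, the fall as deposited was that of 3S18. The rise was that of Dsim_ninja, with 27.8 and 29.5 RPM in Piwi-IP and 33.9 and 38.0 in CG9754-IP (0.32, adjusted p = 0.0407). Dsim_ninja was also higher than in input, which had 23.0 and 22.6 RPM (0.63, adjusted p = 0.00628). Against Piwi-IP its call was lost with no filter (adjusted p = 0.0746), with the 4 libraries compared (0.0938), with the replicate block (0.0752) and with any library left out other than CG9754-IP replicate 1 (0.0551 to 0.140). Its change was 0.66 rescaled to equal TE sums (adjusted p = 0.00716) and 0.68 by median ratios (adjusted p = 0.0124). Against input the call was lost without input replicate 2 (adjusted p = 0.0631).

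Sense, 5 were tested, and as deposited diver was the 1 that fell and 0 rose, with a median of −0.071 beside 0.15 over all TEs, of which 45.3% were called higher and 22.6% lower. Rescaled to equal TE sums 2 rose and 1 fell, beside 54.7% of all TEs called higher and 13.2% lower. By median ratios 3 rose and 1 fell, beside 64.2% called higher and 15.1% lower. Diver2, the closest to diver in name, had 90.8 and 86.1 RPM sense in Piwi-IP and 90.9 and 89.6 in CG9754-IP (0.028, adjusted p = 0.867). Rescaled, diver2 rose by 0.37 (equal TE sums, adjusted p = 0.0125) or 0.40 (median ratios, adjusted p = 0.00623), below the medians of 0.49 and 0.52 over all TEs. RooA sense RNAs were low, with 12.41 and 14.01 RPM in Piwi-IP and 12.1 and 7.50 in CG9754-IP (−0.43, adjusted p = 0.107). The change was −0.74 without CG9754-IP replicate 1, which leaves 1 library in that group. Max-element was under the filter on both strands, with 4.98 to 7.31 RPM antisense. Dsim_ninja was under it on the sense strand, at a mean of 0.94 RPM and 9 to 22 implied reads per library. With no filter its sense change against Piwi-IP was −0.53 (limma adjusted p = 0.00938). Its strand ratio, tested in the main fit, changed by −0.85 (limma adjusted p = 0.00718), where 20.2% of TEs were called lower. Diver was thus not the only BEL/Pao element with lower sense values.

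Profiles over the 6 libraries were compared by the root mean square difference of log2(RPM + 1), after each TE's input mean was taken off. Sense to roo, 3S18 was the nearest of 52 TEs at 0.049, followed by Repbase_Chimpo (0.063) and Juan (0.081), and roo was the nearest to 3S18 in turn, followed by Repbase_Chimpo (0.080) and X-element (0.084). Diver's sense profile was nearest to those of the copia-type element 1731 (0.072), gypsy12 (0.077) and the LINE element BS (0.083). The median distance was 0.39 from roo or 3S18 and 0.56 from diver. On the antisense strand, 3S18 was nearest to gypsy4 (0.058), 297 (0.079) and McClintock (0.081), with a median of 0.22. No TE lay as close to roo, whose nearest were HMS-Beagle (0.25), diver2 (0.27) and Cr1a (0.27), with a median of 0.39. These distances include the CG9754-IP libraries, and roo was singled out for the antisense difference between them. The larger antisense distances of roo thus follow in part from that choice and are not a separate result.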

How the data were processed

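Small RNAs of 6 libraries were used. The deposited table gives no unit in its header; the values were read as RPM because, in each library, 100% of them were whole multiples of 1 step within 0.02 reads, and the totals of the authors' libraries are those implied by the steps (12493500 to 26138400 reads). Tools listed in the submitters' processing notes, without roles, are bedtools 2.16.1, SAMtools 0.1.16, Bowtie 0.12.7 and cutadapt 1.0, with build dm3. The members and lists were chosen with earlier results of these data known. TEs averaging 10 RPM or more across the 6 libraries (both strands together for the strand ratio) were tested with limma 3.58.1 in R 4.3.3 (eBayes with trend, pseudocount 1 RPM, adjusted p under 0.05, two-sided). Named TEs were the members, the BEL/Pao list, the 3 nearest profiles per member and strand, and up to 5 TEs whose CG9754-IP replicates differed as much as those of roo. Intervals used scipy 1.17.1. The fit was first tested on simulated data. Alternatives covered pseudocount, filter, scaling, trend, libraries fitted, replicate block and left-out libraries. A table of small RNAs along 2 piRNA clusters names no TE and was not used here.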

Additional observations from a re-analysis of the deposited data

How the results depend on the processing

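The fall of diver sense RNAs in CG9754-IP kept its direction and its call under all 15 alternatives run, against Piwi-IP and against input. Fits with a library left out have 1 library in that group and take its spread from the others, so those calls carry less weight. All values here are log2 changes. With libraries rescaled to the same TE total, then by the median ratio, Piwi-IP against input turned to −0.13 and −0.15 for roo antisense, −0.024 and −0.047 for 3S18 antisense, −0.060 and −0.083 for roo sense, and −4.9e-04 and −0.024 for 3S18 sense, and diver sense turned to −0.012 by the median ratio. None of these passed. CG9754-IP against Piwi-IP turned to 0.32 and 0.35 for roo sense, both past the threshold, and to 0.27 and 0.30 for 3S18 sense, the second past it. There 54.7% and 64.2% of the TEs on that strand were called higher, with medians of 0.49 and 0.52. For 3S18 antisense the call was lost (−0.11 and −0.087). Against input, roo sense passed (0.26 and 0.27), and 3S18 sense passed by the median ratio (0.28). In that comparison 52.8% and 58.5% of the TEs on the sense strand were called higher, with medians of 0.40 and 0.40. Both members lay below the median TE. Diver antisense, not tested in the main fit, moved to 0.19 and 0.17 (Piwi-IP against input), −0.061 and −0.035 (CG9754-IP against Piwi-IP) and 0.13 and 0.13 (CG9754-IP against input).

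A pseudocount of 10 RPM gave diver antisense 0.18 and −0.20 in the first 2 of these comparisons. It also brought 3S18 antisense against input past the threshold (−0.26), as limma without trend did (−0.32), and the strand ratio of diver (−0.43). The strand ratio of 3S18 (0.38) missed it with no filter and with the 4 libraries compared, as it did against input (0.41) with those compared. Without CG9754-IP replicate 1, 3S18 antisense against input was −0.36. The cause was not tested.

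With each library left out in turn, the ranges were −0.40 to 0.60 for roo antisense against Piwi-IP, −0.36 to 0.64 against input, −0.49 to −0.42 for 3S18 antisense against Piwi-IP and −0.41 to −0.23 against input. They were −0.13 to 0.076 for roo sense and −0.16 to 0.021 for 3S18 sense against Piwi-IP, and −0.024 to 0.18 and −0.0033 to 0.18 against input. Strand ratios ranged from −0.53 to 0.27 for roo, 0.33 to 0.44 for 3S18 and −0.38 to −0.23 for diver against Piwi-IP, and −0.46 to 0.34, 0.35 to 0.46 and −0.56 to −0.38 against input. Diver2 sense against Piwi-IP, run under the alternatives after seeing the data like the other named BEL/Pao elements, ranged from −0.0094 to 0.066.

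Replicate numbers are shared between groups, but no label ties them to a batch or culture. The replicate 1 minus 2 differences of 2 groups correlated at 0.03 to 0.09 across antisense TEs and −0.13 to 0.26 across sense TEs. With the replicate number as a block, the counts of calls went from 47 to 45 antisense and from 36 to 37 sense in CG9754-IP against Piwi-IP, and no call of a member tested changed (diver sense adjusted p = 5.0e-05, limma). Over all TEs, Piwi-IP against input called 1 antisense as fitted, 0 without any 1 input or Piwi-IP library, and 45 with the 4 libraries compared or without either CG9754-IP library; neither roo nor 3S18 was among the 45 with the 4 libraries. The counts against Piwi-IP fell to 29 antisense by the median ratio, and were 55 with no filter and 16 with a filter of 100 RPM on the sense strand. Antisense counts against input ran from 14 to 57 with a library left out. Tests on counts (edgeR, DESeq2), planned if whole reads could be recovered, were not run, because each column held too few low values for the check of whole reads. The values were whole multiples of 1 step, and the intervals used the reads implied by it without that check having been passed.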
